A study of Danio rerio with 18 samples.

Results

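The comparison described here set wild-type GFP-positive zebrafish cells at 48 hpf (hours post fertilization) against wild-type GFP-positive cells at 24 hpf, across all genes. Its members are the 4 libraries of those 2 groups, 2 at each stage, out of 18 in the series, which was made to follow the cardiomyocyte transcriptome as the heart forms. Embryos were dissociated and their cells separated by fluorescence into GFP-positive and GFP-negative fractions, and RNA was sequenced from low-input libraries. The other libraries are wild type at 72 hpf, embryos at 72 hpf labelled gata5, tbx5 or hand2, and 1 GFP-negative library for each condition; the other 8 GFP-positive ones enter below only through the estimate of the spread. All 4 libraries share the wild-type background and the GFP-positive gate and differ by stage. The labels name neither the reporter behind GFP nor its promoter, and they do not say whether replicates 1 and 2 came from separate pools of embryos. The p-values therefore measure only the spread between replicate libraries, taken over all 12 GFP-positive libraries.

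In this interval the zebrafish heart turns from a tube that has begun to beat into a looped organ with an atrium and a ventricle divided by the atrioventricular canal. Cardiomyocytes assemble sarcomeres from myosin thick filaments and actin thin filaments anchored at Z-discs, and they pay for contraction with ATP from glycolysis and mitochondria. Primitive erythrocytes, which carry embryonic globins and make heme, and endothelial cells arise from neighbouring mesoderm. Xanthophores are yellow pigment cells of neural crest origin that make pteridines from GTP, a purine.

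The 24 hpf libraries held 12070094 and 16272092 counts and the 48 hpf libraries 16696417 and 20761818. A count was detected for 19021 and 17430 gene IDs at 24 hpf and for 21123 and 21523 at 48 hpf. Replicates often disagreed on whether a gene was present at all: 1891 gene IDs at 24 hpf and 567 at 48 hpf had 0 counts in one replicate and 30 or more in the other. Levels below are CPM, counts relative to the library total, scaled by the trimmed mean of M-values (TMM-scaled CPM), and they are not corrected for transcript length, so they are compared between stages and not between genes. The number after ± is the standard error of a log2 fold change from edgeR, where a positive value means higher at 48 hpf, and calls are at a Benjamini-Hochberg adjusted p under 0.05 over all genes tested, in edgeR's quasi-likelihood test. CPM values and fold changes of uncalled genes are given as values only.

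Of 23767 genes tested, 3173 (13.4%) were called, 2154 (9.06%) higher and 1019 (4.29%) lower at 48 hpf. The median log2 fold change of all genes tested was 0.14. The called genes that were higher had a median of 3.32 and those that were lower a median of −2.17. In 12965 genes (54.6%) the libraries of the 2 stages did not overlap. Wherever libraries of the 2 stages are described below as apart, this share is the background. Of the genes called higher, 514 (23.9%) had no count in either 24 hpf library, against 16 (1.57%) of the genes called lower that had none at 48 hpf. Leaving out 48 hpf replicate 1 or 48 hpf replicate 2 lowered the number of genes called lower to 502 or 505, and 1137 higher and 369 lower genes were called whichever of the 4 libraries was left out. Where 4 counts are given below for libraries left out in turn, they are in the order 24 hpf replicate 1, 24 hpf replicate 2, 48 hpf replicate 1 and 48 hpf replicate 2.

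The largest rises began from no count in both 24 hpf libraries. oacyl, a gene with an acyltransferase-like name, stood at 0 and 0 CPM at 24 hpf and at 922 and 757 CPM at 48 hpf, at least 9939-fold higher by pooled counts against a floor of 3 counts over the 24 hpf pair (adjusted p = 6.67e-08). SLC24A4 (ENSDARG00000015425), a potassium-dependent sodium and calcium exchanger, went from 0 and 0 to 111 and 122 CPM, at least 1404-fold higher, and CYB561A3 (ENSDARG00000028257), a cytochrome b561 of lysosomes, from 0 and 0 to 142 and 140.5 CPM, at least 1693-fold higher. Both 48 hpf libraries were high in each of these genes, but the rule that chose the largest rises required no overlap between the stages. pvalb2, a parvalbumin that binds calcium in fast muscle, was at least 1147-fold higher and the proneural factor NEUROD1 at least 532-fold higher. NRGN, neurogranin of neurons, was at least 708-fold higher. PNPLA3, a lipase of lipid droplets in mammals, was at least 457-fold higher.

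Among the largest falls were genes known from blood, vein and lymphatic endothelium. tbc1d10c, whose mammalian form is known from lymphocytes, went from 27.4 and 60.8 to 0 and 0 CPM, at least 563-fold lower. lyve1b, a hyaluronan receptor of lymphatic and venous endothelium, went from 36.5 and 19.5 to 0 and 0 CPM, at least 321-fold lower. stab2, a scavenger receptor of the same vessels, stood at 1668 and 1046 CPM at 24 hpf and at 2.83 and 1.78 CPM at 48 hpf (−9.21 ± 1.18, adjusted p = 0.00117). The 24 and 48 hpf libraries were far apart in all 3, but the rule that chose the largest falls required no overlap between the stages. dab2, an endocytic adaptor, stood at 259 and 155 CPM at 24 hpf and at 2.64 and 0.889 CPM at 48 hpf (−6.89 ± 0.72), and GPR182, an endothelial receptor, went from 64.1 and 39.4 to 0 and 0.346 CPM (−8.11 ± 1.76).

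The labelled cell type was checked first against its markers. Thick filament genes of the heart were present at both stages, with a summed level of 399.5 and 578 CPM at 24 hpf and 2381 and 1826 CPM at 48 hpf, and all 4 GFP-positive libraries were far above the 9.76 and 8.20 CPM of the wild-type GFP-negative libraries at 24 and 48 hpf. The other cardiac lists stood less apart from the GFP-negative libraries. At 24 hpf thin filament genes summed to 834.5 and 967 CPM, against 552 CPM in the GFP-negative library, and Z-disc, M-band and titin genes to 3046.5 and 3076 CPM, against 1801 CPM. Conduction and ion channel genes summed to 692 and 609 CPM at 24 hpf, against 869.6 CPM in the GFP-negative library. Cardiac transcription factors summed to 1171 and 1438 CPM at 48 hpf, against 1483 CPM in the GFP-negative library of that stage. The GFP-negative levels were scaled separately, with TMM over all 18 libraries. Small differences between the fractions are therefore not interpreted. Markers of other cells were present as well, at levels that differed by stage. Embryonic globins summed to 23023 and 24945 CPM at 24 hpf and 2133 and 1508 CPM at 48 hpf, and endothelial receptor and junction genes to 4099.5 and 3092 CPM at 24 hpf and 680.1 and 907 CPM at 48 hpf. Both sums were lower in each 48 hpf library than in each 24 hpf library.

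Other marker sums went the other way. Pteridine and xanthophore genes summed to 1061 and 815 CPM at 24 hpf and 45824 and 48474 CPM at 48 hpf, a ratio of the stage means of 50.3 that ran from 43.2 to 59.5 over the pairings of the libraries. Melanophore genes summed to 74.2 and 47.2 CPM at 24 hpf and 1621 and 1755 CPM at 48 hpf. Skeletal muscle genes summed to 328 and 320.4 CPM at 24 hpf and 5731 and 5195 CPM at 48 hpf, a ratio of 16.8. Each of these sums was higher in both 48 hpf libraries. Epidermal and keratin genes summed to 1622 and 1294 CPM at 24 hpf and 7729 and 8366 CPM at 48 hpf, neural genes to 211 and 169 CPM at 24 hpf and 833 and 932 CPM at 48 hpf, and liver and yolk genes to 95.9 and 110.1 CPM at 24 hpf and 729.6 and 485 CPM at 48 hpf. At 24 hpf 11 of 30 neural, 9 of 35 skeletal muscle, 18 of 40 liver and 4 of 34 xanthophore genes were at 0 in both libraries, among them the defining markers NEUROD1, pvalb2, serpina1 and FGG. In such bulk samples fewer cells of a type and less RNA per cell cannot be told apart, and the part that these other cells have in each result below was not tested.

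**Figure D1:**
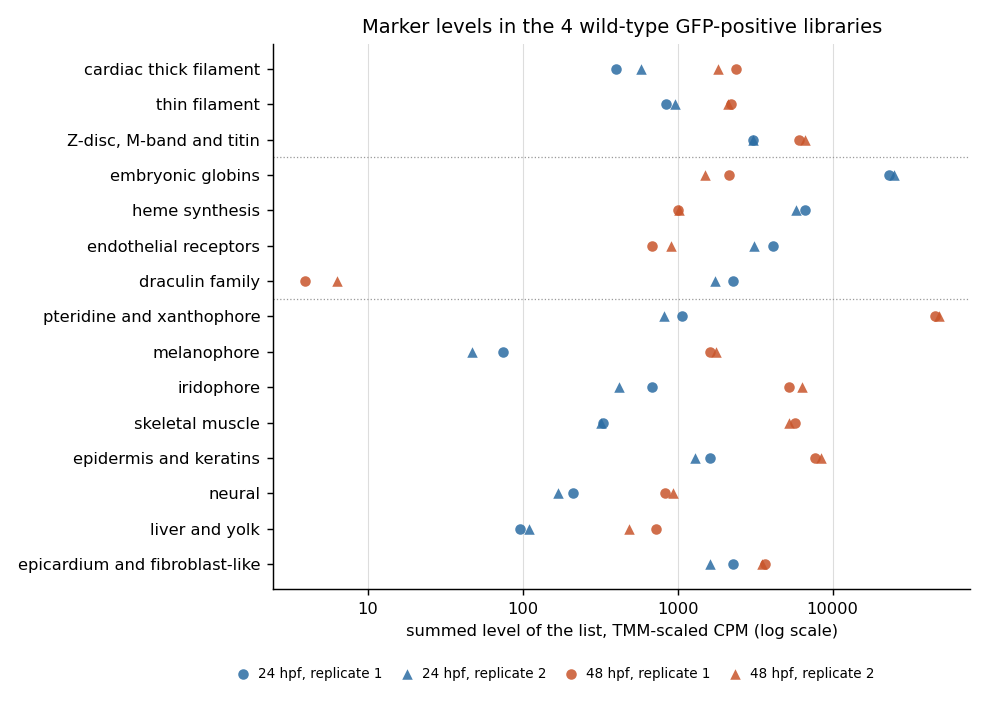
Summed level of 15 gene lists in each of the 4 libraries, in TMM-scaled CPM on a log axis; circles are replicate 1, triangles replicate 2, blue 24 hpf and orange 48 hpf. Pteridine and xanthophore genes lie at 1061 and 815 CPM at 24 hpf and 45824 and 48474 CPM at 48 hpf, while embryonic globins lie at 23023 and 24945 CPM at 24 hpf and 2133 and 1508 CPM at 48 hpf.

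Lists of heart muscle genes had medians above that of all genes. These lists also hold genes shared with skeletal muscle. One of them, acta1b, was chosen for the skeletal muscle list as well, whose sum was higher at 48 hpf. The part of skeletal muscle in these medians was not tested. Of the thick filament list 0 of 8 tested members were called (median 2.09, or 1.35 without 48 hpf replicate 1), of the thin filament list 2 of 19 rose (median 1.64), and of the Z-disc, M-band and titin list 5 of 30 rose and 0 fell (median 1.99), against 9.06% of all genes that rose and a median of 0.14. actc1b, an alpha-actin of heart and skeletal muscle, stood at 20.3 and 12.3 CPM at 24 hpf and at 444 and 480.4 CPM at 48 hpf (4.83 ± 0.53, adjusted p = 5.24e-05). Both 48 hpf libraries were above both 24 hpf libraries, by more than the spread between replicates. Its paralog actc1a stood at 224 and 289 CPM at 24 hpf and at 424 and 448 CPM at 48 hpf (0.76 ± 0.48, adjusted p = 0.363) and was not called.

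Of the M-band proteins, which tie thick filaments together, MYOM1 (ENSDARG00000061249) rose from 2.19 and 5.47 to 39.2 and 35.0 CPM (3.26 ± 0.56, adjusted p = 0.00101). The other MYOM1 ID, ENSDARG00000004836, stood at 52.7 and 72.7 CPM at 24 hpf and at 153 and 158 CPM at 48 hpf and was not called (1.31 ± 0.56, adjusted p = 0.171). SMYD1 (ENSDARG00000009280), a methyltransferase needed for myosin assembly in muscle, went from 0 and 0 to 5.98 and 3.31 CPM, at least 53.7-fold higher. tnnt2d, a troponin T, likewise began from 0 and was at least 27.2-fold higher (adjusted p = 0.00144). Leaving out each library in turn, 2, 4, 2 and 2 thin filament and 3, 5, 4 and 4 Z-disc, M-band and titin genes rose.

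The abundant chamber myosins were higher in both 48 hpf libraries and were not called. MYH7, the symbol matched to the ventricular heavy chain, stood at 146 and 226 CPM at 24 hpf and at 1171 and 835 CPM at 48 hpf (2.43 ± 1.18, adjusted p = 0.262). myh6, the atrial heavy chain, stood at 42.0 and 62.5 CPM at 24 hpf and at 248 and 309.8 CPM at 48 hpf (2.41 ± 1.01, adjusted p = 0.188). MYL7 and cmlc1, cardiac light chains, had log2 fold changes of 1.58 ± 1.11 and 1.76 ± 0.90. The libraries of the 2 stages did not overlap in any of these 4 genes, as in 54.6% of all genes tested. nppa, atrial natriuretic peptide, went from 1.92 and 12.3 to 111 and 63.8 CPM (3.61 ± 1.25, adjusted p = 0.112) and was not called either. These tests draw their spread from all 12 GFP-positive libraries; with the 4 compared libraries alone, 6 thin filament and 8 Z-disc, M-band and titin members rose and 3 thick filament members did.

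**Figure D2:**
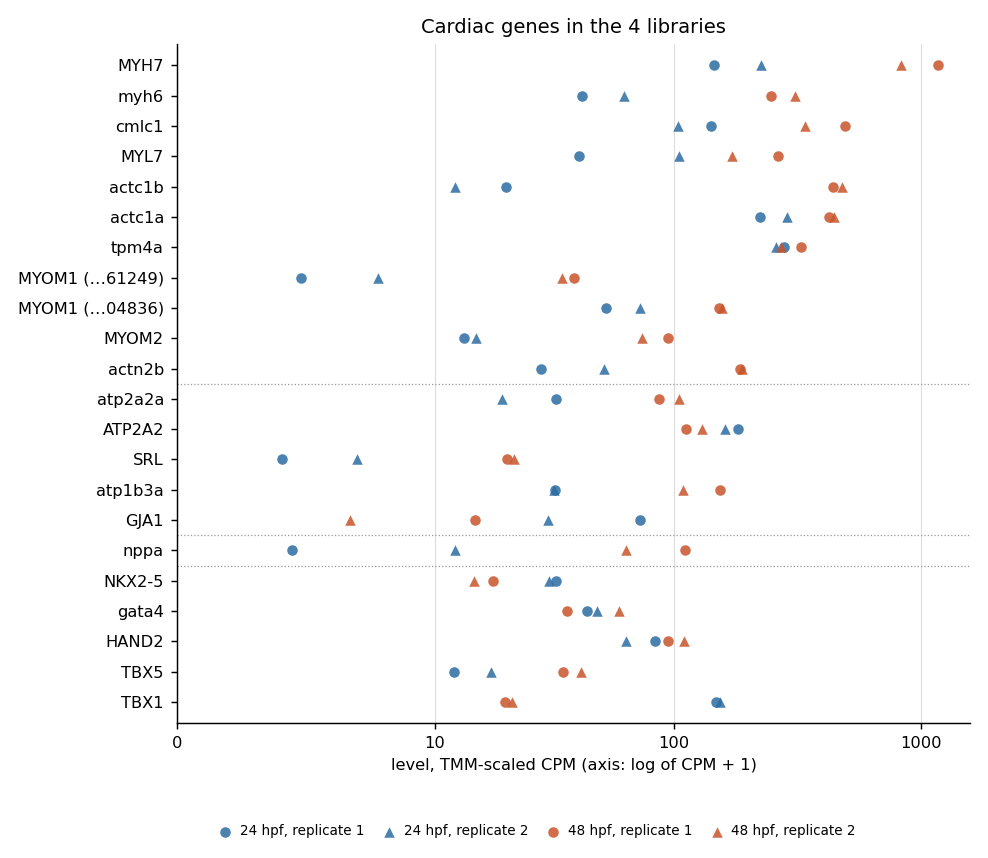
Level of 22 cardiac genes in each library, in TMM-scaled CPM on an axis of the log of CPM + 1; symbols and colours as in the plot of marker levels, with dotted lines between contractile, ion handling, natriuretic peptide and transcription factor genes. actc1b sits at 20.3 and 12.3 CPM at 24 hpf and at 444 and 480.4 CPM at 48 hpf, while gata4 overlaps between the stages.

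In the calcium handling list 3 of 18 members rose and 0 fell (median 1.55), against 9.06% of all genes that rose and 4.29% that fell, and with each library left out in turn the count was 1, 3, 1 and 2. ATP2A2, a pump that refills the sarcoplasmic reticulum, stood at 183 and 161 CPM at 24 hpf and at 112 and 131 CPM at 48 hpf. It was not called (−0.50 ± 0.34, adjusted p = 0.386). The related gene atp2a2a is a separate member of the list and is plotted with the cardiac genes. The values of ATP2A2 do not stand for it. RYR2, the calcium release channel, stood at 71.9 and 134 CPM at 24 hpf and at 228 and 240.0 CPM at 48 hpf and was not called either (1.18 ± 0.96, adjusted p = 0.501). ATP2A2 and RYR2 are thus not among the 3 members that rose. In the conduction and ion channel list 2 of 24 rose and 1 fell, shares near those of all genes, and with each library left out in turn 5, 1, 2 and 1 rose and 0, 1, 1 and 0 fell. Of these atp1b3a, a beta subunit of the sodium pump, rose from 32.5 and 32.3 to 155 and 109 CPM (2.03 ± 0.38, adjusted p = 0.0021). HCN4, the pacemaker channel (2.63 ± 0.91, adjusted p = 0.0742 for ENSDARG00000061685), was not called.

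Of cardiac transcription factors 4 of 38 were higher and 3 lower, against 9.06% and 4.29% of all genes. Their median was 0.37, and it ran from 0.0032 without 48 hpf replicate 2 through 0.17 without 24 hpf replicate 1 to 0.53 without 48 hpf replicate 1. Of 5 core factors taken first, gata4 and TBX20 overlapped between the stages. gata4 stood at 44.2 and 48.7 CPM at 24 hpf and at 36.6 and 59.6 CPM at 48 hpf (0.05 ± 0.56, adjusted p = 1), TBX20 at 60.0 and 44.9 CPM at 24 hpf and at 36.8 and 62.5 CPM at 48 hpf (−0.08 ± 0.45, adjusted p = 0.987) and HAND2, with no overlap, at 83.6 and 64.1 CPM at 24 hpf and at 94.4 and 110.2 CPM at 48 hpf (0.47 ± 0.94, adjusted p = 0.856). NKX2-5 stood at 32.8 and 30.8 CPM at 24 hpf and at 17.9 and 14.9 CPM at 48 hpf. TBX5 stood at 12.2 and 17.6 CPM at 24 hpf and at 35.2 and 41.6 CPM at 48 hpf. Neither overlapped between the stages and neither was called (adjusted p = 0.865 and 0.366). Such a lack of overlap was seen in 54.6% of all genes tested. TBX1, a factor of pharyngeal mesoderm and the late-added heart cells, fell from 149 and 155 to 20.02 and 21.4 CPM (−2.87 ± 0.59, adjusted p = 0.00444). Without 48 hpf replicate 1 its adjusted p was 0.0555. Leaving out each library in turn left 2, 2, 2 and 2 members higher and 1, 2, 0 and 1 lower. The list for the atrioventricular canal, outflow tract and late-added cells had 2 of 24 members higher and 2 lower (4, 1, 2 and 1 and 1, 2, 0 and 1 with each library left out in turn), and 0 of 5 natriuretic peptide genes were called.

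Heme synthesis fell nearly as a whole pathway. Of 15 tested genes 12 fell and 1 rose, with a median of −4.11, against 4.29% of all genes that fell, and 11 of the falls were called whichever library was left out. Both paralogs of the first enzyme, which makes aminolevulinic acid from glycine and succinyl-CoA, changed and in opposite directions. alas2, the erythroid form, stood at 1159 and 918 CPM at 24 hpf and at 38.8 and 38.02 CPM at 48 hpf (−4.76 ± 0.64, adjusted p = 0.000503). ALAS1, the form of other tissues, stood at 53.0 and 37.5 CPM at 24 hpf and at 668 and 761 CPM at 48 hpf (3.98 ± 0.32, adjusted p = 1.96e-06). In both genes the libraries of a stage lay close together and the stages far apart.

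The later enzymes followed alas2. ALAD, which joins aminolevulinic acids in pairs, went from 415 and 231 to 16.9 and 7.26 CPM (−4.74 ± 0.50). Its 24 hpf libraries were both above its 48 hpf libraries. uros, which closes the ring, changed by −3.89 ± 0.68 and UROD, which trims its side chains, by −5.15 ± 0.43. CPOX stood at 1301 and 885 CPM at 24 hpf and at 9.95 and 10.02 CPM at 48 hpf (−6.77 ± 0.83, adjusted p = 0.000495), and PPOX, the next oxidase, went from 164 and 194 to 3.59 and 4.64 CPM (−5.44 ± 0.43). FECH, which inserts iron, stood at 808 and 1137 CPM at 24 hpf and at 51.8 and 61.0 CPM at 48 hpf (−4.11 ± 0.36, adjusted p = 4.26e-06). The mitochondrial transporters ABCB10 (−3.25 ± 0.43) and ABCB6 (ENSDARG00000063297) (−3.73 ± 0.67) fell too, while HMOX1, which degrades heme, was not called (1.82 ± 0.74, adjusted p = 0.168).

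Embryonic globins, the proteins that carry this heme, fell in 6 of 7 tested members (median −3.93), against 4.29% of all genes that fell. hbae1.1 stood at 2603 and 4368 CPM at 24 hpf and at 270.5 and 186 CPM at 48 hpf (−3.93 ± 0.38, adjusted p = 9.89e-06). hbae1.2 (−3.90 ± 0.43), hbae1.3 (−3.46 ± 0.41) and hbae3 (−2.95 ± 0.38) fell by similar amounts, and reads could be split among such near-identical copies. These 4 were called whichever library was left out. Without 24 hpf replicate 1, 48 hpf replicate 1 or 48 hpf replicate 2 the number of fallen globins was 4.

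**Figure D3:**
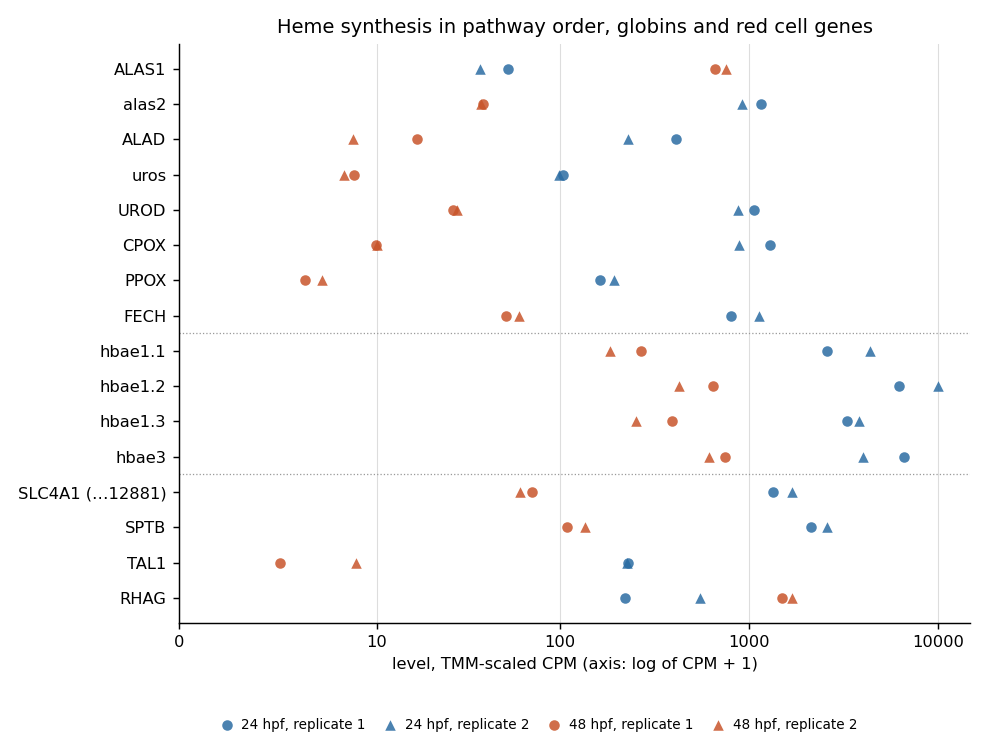
Level of 8 heme synthesis genes in pathway order, 4 globins and 4 other red cell genes in each library, in TMM-scaled CPM on an axis of the log of CPM + 1; symbols and colours as in the plot of marker levels. All points at 48 hpf lie below those at 24 hpf except for ALAS1 and RHAG.

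Of 29 red cell membrane, iron and regulatory genes 13 fell and 1 rose (median −3.69), against 4.29% and 9.06% of all genes. SLC4A1 (ENSDARG00000012881), the anion exchanger of the red cell membrane, stood at 1344 and 1698 CPM at 24 hpf and at 71.4 and 61.9 CPM at 48 hpf (−4.51 ± 0.53, adjusted p = 9.04e-05). SPTB, beta-spectrin of its skeleton, went from 2125 and 2596 to 110.1 and 137 CPM (−4.26 ± 0.62), and SLC25A37, the mitochondrial iron importer, from 636 and 720.5 to 107 and 169 CPM (−2.30 ± 0.41). The 24 hpf libraries were high in all 3. RHAG, an ammonium transporter of the Rhesus family named for red cells, went the other way, at 224 and 551 CPM at 24 hpf and at 1504 and 1703 CPM at 48 hpf (2.05 ± 0.43, adjusted p = 0.00508).

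Blood transcription factors stood low at 48 hpf. TAL1, the factor that starts the blood lineage, went from 229.6 and 227 to 2.39 and 7.51 CPM (−5.52 ± 0.80, adjusted p = 0.000718). gata1a, the master factor of erythroid cells, went from 113 and 173 to 2.39 and 1.14 CPM and klf1 from 112 and 160.1 to 2.52 and 4.74 CPM, with no overlap and no call (adjusted p = 0.0657 and 0.104). klf17, blf and GFI1B were apart in the same way, with adjusted p of 0.0603, 0.0502 and 0.0989. Libraries of the 2 stages did not overlap in 54.6% of all genes tested. With the spread taken from the 4 compared libraries alone, 21 of the 29 genes were called lower.

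The draculin family, zinc finger genes of blood and lateral plate mesoderm in a list assembled after the values were seen, fell in 3 of 4 members. drll.1 stood at 785 and 667 CPM at 24 hpf and at 1.57 and 3.85 CPM at 48 hpf (−8.05 ± 0.93, adjusted p = 0.000648). drl went from 795 and 616 to 1.45 and 0.247 CPM and drll.2 from 663 and 446 to 0.693 and 2.17 CPM, and without 48 hpf replicate 1 or 48 hpf replicate 2 their adjusted p were 0.0743 and 0.0996 for drl and 0.15 and 0.111 for drll.2. IKZF1, a factor of blood progenitors, went from 93.1 and 93.7 to 1.32 and 0.395 CPM (−6.78 ± 0.86). RUNX3, a runt-domain factor, rose from 10.999 and 16.9 to 118 and 80.9 CPM (2.83 ± 0.34). Over all genes 4.29% fell and 9.06% rose. In the stem and progenitor list 2 of 11 fell, 1 without either 48 hpf library, and 1 rose.

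White cell genes moved both ways, 6 of 41 higher and 5 lower, against 9.06% and 4.29% of all genes. npsn, a neutrophil protease, went from 79.6 and 206 to 1.64 and 1.14 CPM (log2 fold change −6.69, adjusted p = 0.000965), and srgn, the proteoglycan of granules, from 19.1 and 19.1 to 0.315 and 0.593 CPM (−5.37 ± 0.86). SPI1 (−3.13 ± 0.87), CEBPA (−3.05 ± 0.64) and LCP1 (−2.51 ± 0.54) were called lower as well. SPI1 was not called with the 4 compared libraries alone. marco, a macrophage scavenger receptor, went from 0 and 0 to 9.82 and 3.65 CPM, at least 76.2-fold higher. csf1ra, a receptor of macrophages and xanthophores, went from 34.5 and 29.8 to 1348 and 1756 CPM (5.59 ± 0.42). The omissions in turn left 5, 3, 4 and 6 higher and 5, 5, 4 and 2 lower.

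Endothelial genes fell across receptors, junctions and transcription factors, where 4.29% of all genes fell and 9.06% rose. Of the receptor and junction list 19 of 41 members fell and 1 rose (median −3.27). cdh5, the cadherin of endothelial junctions, stood at 480.2 and 318 CPM at 24 hpf and at 26.1 and 20.9 CPM at 48 hpf (−4.09 ± 0.56, adjusted p = 0.000291). kdrl, a receptor for vascular endothelial growth factor, went from 331 and 268 to 45.4 and 28.3 CPM (−3.02 ± 0.45), and FLT4, the receptor of veins and lymphatics, from 178 and 131 to 9.70 and 22.4 CPM (−3.27 ± 0.57). In these 3 genes no library at 48 hpf reached those at 24 hpf, and 54.6% of all genes tested had no overlap in either direction. TIE1 (−3.65 ± 0.53), plvapb of fenestrated endothelium (−3.80 ± 0.57), clec14a (−4.82 ± 0.96) and she (−4.57 ± 0.60) fell too. When each library was left out in turn, 14, 16, 10 and 11 fell and 1, 0, 1 and 0 rose.

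Of endothelial transcription factors 5 of 20 fell and 1 rose, against 4.29% and 9.06% of all genes. FLI1 was among the falls, from 192 and 98.5 to 15.11 and 10.2 CPM (−3.52 ± 0.47, adjusted p = 0.000137). Leaving out each library in turn left 5, 4, 3 and 3 fallen and 1, 0, 1 and 0 risen. Scavenger receptor, vein and lymph genes split, with 5 of 15 lower and 3 higher, and all 8 calls held whichever library was left out. MRC1, the mannose receptor, went from 564 and 507 to 18.7 and 2.81 CPM (−5.64 ± 1.02) and stab1 from 333 and 296 to 41.1 and 34.2 CPM (−3.06 ± 0.47). The 3 that rose were marco and the lysosomal proteases CTSD and ctsla, described with the cathepsins. The endocardial list shares cdh5 and EGFL7 with the receptor and junction list, and both genes fell. Of the endocardial list 3 of 17 fell, and without 48 hpf replicate 2 it was 1; its factors NFATC1 (−0.50 ± 0.57, adjusted p = 0.665) and klf2a (0.85 ± 0.52, adjusted p = 0.345) were not called.

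Cell division genes fell at every step of the cycle. Of genes of G1 and entry into S phase 12 of 25 fell and 1 rose (median −1.63), of replication genes 28 of 43 fell and 0 rose (median −2.28), and of mitotic genes 36 of 45 fell and 0 rose (median −2.42), where 4.29% of all genes fell. The D-type cyclins, which start the cycle in response to growth signals, moved apart. CCND1 stood at 681 and 843 CPM at 24 hpf and at 67.8 and 93.3 CPM at 48 hpf (−3.24 ± 0.31, adjusted p = 8.26e-06). CCND2 (ENSDARG00000070408) stood at 10.9 and 13.0 CPM at 24 hpf and at 115 and 87.9 CPM at 48 hpf (3.08 ± 0.51, adjusted p = 0.001), while the other CCND2 ID, ENSDARG00000051748, was at 10.7 and 19.1 CPM at 24 hpf and at 15.6 and 14.1 CPM at 48 hpf and was not called. SKP2, which marks cell cycle inhibitors for degradation, fell from 76.1 and 51.7 to 1.95 and 3.9997 CPM (−4.42 ± 0.65), and CCNE2, cyclin E, from 55.1 and 93.7 to 12.8 and 7.65 CPM (−2.86 ± 0.51).

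In replication, the helicase subunit genes MCM2, MCM3, MCM4, MCM5, MCM7 and MCM6 (ENSDARG00000057683) fell, by amounts that ran from −2.68 ± 0.33 for MCM3 to −1.93 ± 0.30 for MCM7. CDT1, which loads that helicase, went from 51.9 and 93.6 to 7.93 and 5.48 CPM (−3.44 ± 0.50), and CDC45, which activates it, from 61.2 and 39.6 to 2.20 and 6.27 CPM (−3.57 ± 0.71). PCNA, the sliding clamp, stood at 606 and 705 CPM at 24 hpf and at 147 and 96.5 CPM at 48 hpf (−2.43 ± 0.38, adjusted p = 0.000514). Its 24 hpf libraries were both several times above its 48 hpf libraries. In mitosis, mki67, a proliferation marker, stood at 669 and 962 CPM at 24 hpf and at 136 and 166 CPM at 48 hpf (−2.43 ± 0.32, adjusted p = 0.000123). The separase espl1 (−3.14 ± 0.38), the checkpoint kinase bub1 (−2.95 ± 0.46), the kinase plk1 (−2.59 ± 0.37), the motor kif11 (−2.53 ± 0.31) and the condensin subunit SMC4 (−2.82 ± 0.39) fell. These were called whichever library was left out, as were 27 of the 36 mitotic and 18 of the 28 replication calls; for G1 and S entry 11, 8, 6 and 9 fell with each library left out in turn.

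Of 19 inhibitor and arrest genes, which restrain division, 3 rose and 0 fell, against 9.06% of all genes that rose, and those 3 were paralogs of the stress-induced GADD45 family. GADD45B (ENSDARG00000013576) stood at 2.92 and 3.98 CPM at 24 hpf and at 116 and 38.8 CPM at 48 hpf (4.48 ± 0.60, adjusted p = 0.000234). Without 48 hpf replicate 1 GADD45A and GADD45G lost their calls (adjusted p = 0.14 and 0.222), and GADD45G also did without 24 hpf replicate 1 or 24 hpf replicate 2 (0.161 and 0.127). The inhibitor cdkn1a went from 2.58 and 11.1 to 25.1 and 22.9 CPM and was not called (1.801 ± 0.65, adjusted p = 0.0881).

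Genes that copy chromatin along with DNA fell with replication. UHRF1, which carries methylation to the new strand, stood at 261 and 263 CPM at 24 hpf and at 45.1 and 40.5 CPM at 48 hpf (−2.61 ± 0.35, adjusted p = 0.000152), and its partner DNMT1 went from 271 and 224 to 57.0 and 60.1 CPM (−2.08 ± 0.27). The histone chaperone subunits chaf1a (−1.75 ± 0.31) and CHAF1B (−2.44 ± 0.43) fell. In the chromatin list 19 of 45 fell and 3 rose (median −0.95), against 4.29% and 9.06% of all genes. Over the omissions in turn 15, 13, 11 and 10 fell and 2, 1, 1 and 2 rose. In lists assembled after the values were seen, histones fell in 7 of 16 (4, 7, 5 and 4 with each library left out in turn) and recombination and cross-link repair genes in 6 of 27 (3, 5, 2 and 2 likewise). MSH6, which recognises mismatches, went from 113 and 89.1 to 27.3 and 18.6 CPM (−2.14 ± 0.42).

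Ribosome assembly genes fell while no gene for the ribosome's own proteins was called. Of ribosome biogenesis genes 24 of 46 fell and 0 rose (median −1.44), against 4.29% of all genes that fell. BOP1, needed for the large subunit, stood at 96.9 and 95.4 CPM at 24 hpf and at 8.88 and 15.2 CPM at 48 hpf (−2.997 ± 0.39, adjusted p = 0.000112), and FBL, which methylates ribosomal RNA, went from 145 and 209 to 39.5 and 39.9 CPM (−2.15 ± 0.34). TBL3 (−2.29 ± 0.32) and UTP20 (−2.26 ± 0.44), of the small subunit processome, and RRP12 (−1.98 ± 0.28) fell too. Leaving out each library in turn gave 15, 22, 11 and 13 falls. Of 82 ribosomal protein genes 0 were called in either direction (median 0.06). Their libraries overlapped between stages in most cases, with no overlap in 18 of 82, against 54.6% of all genes tested. Without 24 hpf replicate 1 the median was 0.43 and 3 were higher, and without 24 hpf replicate 2 or 48 hpf replicate 1 it was −0.17 or −0.18.

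Other parts of protein turnover lay between these, in lists assembled after the values were seen. Their counts were read against 4.29% of all genes that fell and 9.06% that rose. Cytosolic tRNA synthetases fell in 6 of 17 (median −0.91), VARS1 among them, from 210.5 and 131 to 52.2 and 45.8 CPM (−1.799 ± 0.33). The list of translation initiation factors also holds genes only named after such factors. Of these EIF4EBP2, a binding protein, was called higher (0.85 ± 0.27) and eif2ak1, a kinase, lower (−1.67 ± 0.34). Translation initiation factors fell in 11 of 64 and rose in 1, and 0 of these calls held whichever library was left out. With each library left out in turn, 4, 6, 2 and 3 synthetases and 10, 9, 1 and 4 initiation factors fell. Proteasome subunits rose in 1 of 45, in 0 without either 48 hpf library, and fell in 0.

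**Figure D4:**
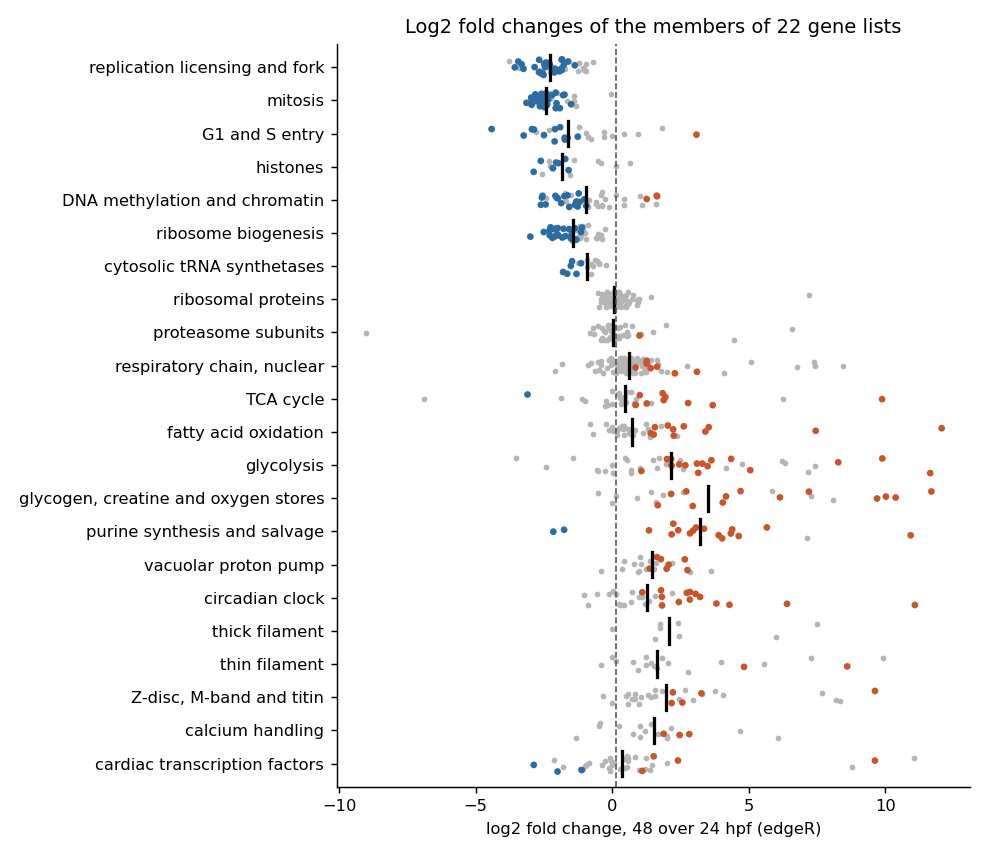
Log2 fold change, 48 over 24 hpf, of each tested member of 22 gene lists; coloured points were called (orange higher, blue lower), grey points were not, black bars are list medians and the dashed line is the median of all genes, 0.14. Replication, mitosis and ribosome biogenesis lie to the left with medians of −2.28, −2.42 and −1.44, ribosomal proteins sit at 0.06, and glycolysis and purine synthesis lie to the right at 2.16 and 3.21.

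Glycolysis genes rose in 17 of 42 tested members and fell in 0 (median 2.16, or 2.14 with genes absent at 24 hpf set at their bound). Among all genes 9.06% rose and 4.29% fell. The other 25 members were not called, and 6 had negative log2 fold changes, down to −3.51. TPI1 (ENSDARG00000040988) went from 19.9 and 33.2 to 244 and 213 CPM (3.10 ± 0.33). PKM (ENSDARG00000099860), pyruvate kinase, went from 0 and 0 to 13.98 and 23.8 CPM, at least 233-fold higher. The 48 hpf libraries were above those of 24 hpf in TPI1 and PKM. Over all genes tested 54.6% had no overlap between the stages.

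Genes of the middle and lower steps were among the rises. GAPDH went from 10.3 and 20.2 to 169.9 and 132 CPM (3.30 ± 0.60, adjusted p = 0.00356), the phosphoglycerate mutases pgam1a (3.15 ± 0.37) and pgam1b (3.49 ± 0.41) rose, and so did ENO3, the muscle enolase (2.15 ± 0.31). LDHB, the lactate dehydrogenase typical of heart, stood at 45.7 and 37.0 CPM at 24 hpf and at 522 and 502 CPM at 48 hpf (3.63 ± 0.31, adjusted p = 3.2e-06), and LDHA, typical of fast muscle, went from 33.5 and 35.4 to 172 and 104 CPM (2.003 ± 0.34). SLC2A1 (ENSDARG00000007412), a glucose transporter, went from 11.1 and 10.8 to 73.4 and 66.9 CPM (2.68 ± 0.55). The first kinase HK1 stood at 172 and 166 CPM at 24 hpf and at 154 and 195 CPM at 48 hpf and was not called (0.04 ± 0.29).

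Genes for stores of phosphate, glucose and oxygen rose in 13 of 24 members (median 3.50, or 2.83 at the bounds), against 9.06% of all genes. mb, myoglobin, went from 0 and 0 to 31.7 and 7.31 CPM, at least 216-fold higher. CKB (ENSDARG00000043257), the creatine kinase of brain type, stood at 26.6 and 22.8 CPM at 24 hpf and at 444 and 443 CPM at 48 hpf (4.16 ± 0.32, adjusted p = 1.47e-06), and ckma, of muscle type, went from 6.82 and 14.4 to 348 and 207 CPM (4.70 ± 0.62). SLC6A8, which imports creatine, went from 0 and 0.768 to 28.4 and 30.4 CPM, and GAMT, which makes it, from 9.14 and 8.97 to 47.5 and 33.2 CPM (2.16 ± 0.36). GYS1, glycogen synthase, went from 3.84 and 0.432 to 33.6 and 36.3 CPM (4.05 ± 0.86), and GYG1 (ENSDARG00000059391), the glycogenin that primes glycogen, from 0 and 0.192 to 101 and 88.7 CPM. In each of these the 2 stages were apart in every library, as in 54.6% of all genes tested. ckma is also a skeletal muscle marker, and that list's sum moved with it.

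Of the genes of fatty acid oxidation, which runs in mitochondria, 11 of 39 rose and 0 fell (median 0.74), against 9.06% of all genes that rose. The median was 1.31 without 24 hpf replicate 1 and 0.55 without 24 hpf replicate 2. FABP3, the fatty acid carrier of heart, stood at 46.8 and 14.5 CPM at 24 hpf and at 346 and 305 CPM at 48 hpf (3.41 ± 0.53, adjusted p = 0.000824), and ACSL1, which activates fatty acids, went from 37.9 and 23.2 to 199.6 and 175 CPM (2.62 ± 0.37). CPT1B, the muscle gate for fatty acids into mitochondria, had 3 counts over both 24 hpf libraries and was 176-fold (59.8 to 855) higher by pooled counts with its counting interval. Its regulator pparaa rose at least 304-fold from 0, and the coactivator PPARGC1A went from 2.39 and 1.87 to 25.2 and 24.1 CPM (3.53 ± 0.73). HADHA, of the long-chain oxidation complex, was not called (0.19 ± 0.29, adjusted p = 0.772). Leaving out 24 hpf replicate 2 or 48 hpf replicate 1 gave 7 rises.

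In the citric acid cycle 9 of 36 genes rose and 1 fell. OGDH, which makes the succinyl-CoA that heme synthesis uses, was the one that fell, from 313 and 397 to 39.7 and 43.0 CPM (−3.10 ± 0.38, adjusted p = 7.89e-05). FH, fumarase, rose from 26.1 and 38.04 to 189.9 and 251 CPM (2.78 ± 0.33), IDH1, the cytosolic isocitrate dehydrogenase, from 57.5 and 65.4 to 685 and 893 CPM (3.68 ± 0.41) and MDH2 from 29.2 and 20.8 to 102 and 81.8 CPM (1.88 ± 0.35). In these 4 genes no 24 hpf library overlapped with a 48 hpf library, as in 54.6% of all genes tested. Nuclear genes of the respiratory chain rose in 7 of 106 and fell in 0 (median 0.62), a share under the 9.06% of all genes that rose. That median was 0.38 without 48 hpf replicate 1. Among the nuclear genes that rose was cox6b1, a subunit of cytochrome oxidase, from 2.12 and 2.97 to 24.8 and 19.2 CPM (3.10 ± 0.53). Genes of the mitochondrial genome rose in 4 of 13, MT-CO3 whichever library was left out, from 511 and 683 to 3352 and 2252 CPM (2.23 ± 0.34). With each library left out in turn, 8, 6, 6 and 6 citric acid cycle, 9, 4, 4 and 4 nuclear and 1, 8, 2 and 4 mitochondrial genome members rose.

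Purine synthesis, a list assembled after the values were seen, rose in 15 of 18 members and fell in 2 (median 3.21; 1, 2, 1 and 1 fell with each library left out in turn), and 14 of the rises were called whichever library was left out. Among all genes 9.06% rose and 4.29% fell. The purine pathway builds inosine monophosphate on a ribose phosphate. PPAT, its first committed step, went from 31.9 and 11.03 to 216 and 224 CPM (3.36 ± 0.59), PFAS from 65.4 and 48.7 to 1075 and 1323 CPM (4.39 ± 0.39) and ATIC, which closes the ring, from 50.8 and 35.2 to 1029 and 1102 CPM (4.63 ± 0.45). PAICS stood at 45.9 and 37.3 CPM at 24 hpf and at 2144 and 2067 CPM at 48 hpf (5.66 ± 0.48, adjusted p = 2.98e-06). In PAICS, PFAS and ATIC both 48 hpf libraries were more than 10 times above both 24 hpf libraries.

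At the branch to guanine the paralogs of inosine monophosphate dehydrogenase parted. IMPDH1 (ENSDARG00000029524) rose from 225 and 96.4 to 2957 and 3575 CPM (4.34 ± 0.56, adjusted p = 0.000261). IMPDH2 fell from 52.9 and 66.0 to 15.4 and 11.2 CPM (−2.16 ± 0.41, adjusted p = 0.00212). GMPS, the next step, rose from 319.8 and 222 to 1856 and 2361 CPM (2.96 ± 0.39). The branch to adenine rose as well, with ADSL at 2.17 ± 0.39 and ADSS1 at 2.24 ± 0.39, while the related adssl fell. hprt1l, a salvage enzyme gene, rose from 2.52 and 4.03 to 62.5 and 44.7 CPM (4.03 ± 0.59).

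Pteridine and xanthophore genes, whose pathway starts from GTP, rose in 27 of 34 members and fell in 0 (median 5.76, or 5.63 at the bounds), against 9.06% of all genes that rose. PAICS, ATIC and GART are members of this list as well as of the purine list. gch2, the GTP cyclohydrolase that opens pteridine synthesis in pigment cells, stood at 152 and 67.6 CPM at 24 hpf and at 17869 and 17390 CPM at 48 hpf (7.33 ± 0.64, adjusted p = 1.04e-05). PTS, the next enzyme, stood at 43.7 and 31.3 CPM at 24 hpf and at 3077 and 4160.5 CPM at 48 hpf (6.59 ± 0.75, adjusted p = 0.000243). Sepiapterin reductase, SPR (ENSDARG00000058553), stood at 0.398 and 0 CPM at 24 hpf and at 319 and 278 CPM at 48 hpf. The stages were apart in each gene, as in 54.6% of all genes tested. In gch2 and PTS the 24 hpf level was above 0 in both libraries. The recycling enzymes PCBD1 (6.03 ± 0.43) and QDPR (ENSDARG00000040190) (5.28 ± 0.46) rose, as did aox5, which oxidises pteridines (6.72 ± 0.68).

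Carriers and identity genes of xanthophores rose too. The sugar carrier family members slc2a15a (7.33 ± 0.49) and slc2a11b (6.80 ± 0.59), the organic anion carrier slc22a7a (9.81 ± 0.49) and plin6, a lipid droplet protein of carotenoid stores (8.65 ± 0.51), rose. SCARB1, which takes up carotenoids, went from 9.08 and 6.91 to 151 and 148 CPM (4.23 ± 0.38) and BCO1, which cleaves them, from 7.62 and 4.41 to 299 and 395 CPM (5.85 ± 0.54). SOX10, the neural crest factor of pigment cells, stood at 12.8 and 6.09 CPM at 24 hpf and at 219 and 239 CPM at 48 hpf (4.60 ± 0.38, adjusted p = 2.75e-06), and PAX7 (ENSDARG00000100398), a xanthophore factor, went from 32.4 and 17.7 to 341 and 349 CPM (3.79 ± 0.38). Both were above 0 in both 24 hpf libraries and higher in both 48 hpf libraries.

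Other pigment cell genes were mixed. TYR, the enzyme that starts melanin synthesis, went from 22.5 and 8.16 to 708 and 969 CPM (5.78 ± 0.54, adjusted p = 9.91e-06), and MITF (ENSDARG00000003732), its regulator, from 10.5 and 6.57 to 156 and 175 CPM (4.28 ± 0.62). DCT, a later melanin enzyme and a defining melanophore marker, stood at 0.663 and 1.73 CPM at 24 hpf and at 3.27 and 1.28 CPM at 48 hpf and was not called (adjusted p = 0.731), nor was OCA2 (adjusted p = 0.439). In all 8 of 14 melanophore, 4 of 13 iridophore and 5 of 16 neural crest genes rose and 0 fell, against 9.06% of all genes that rose. These lists share genes with those above. GMPS and IMPDH1, described with purine synthesis, are also members of the iridophore list and enter its plotted sum. SOX10 is a member of the xanthophore and neural crest lists. EDNRB (ENSDARG00000089334), a receptor of iridophores, went from 1.72 and 1.295 to 191 and 221 CPM (7.10 ± 0.49), and the iridophore purine enzyme pnp4a from 7.35 and 4.75 to 103 and 77.1 CPM (3.90 ± 0.52).

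Acidic organelle genes, also from lists assembled after the values were seen, rose with these, where 9.06% of all genes rose. The vacuolar proton pump rose in 7 of 22 subunits and fell in 0 (median 1.47), with ATP6V1A (ENSDARG00000076318), its catalytic subunit, at 50.9 and 39.2 CPM at 24 hpf and at 236 and 333 CPM at 48 hpf (2.66 ± 0.31, adjusted p = 5.24e-05) and atp6v1e1b at 49.8 and 42.8 CPM at 24 hpf and at 183 and 185 CPM at 48 hpf (1.99 ± 0.29). Leaving out 24 hpf replicate 1 gave 11 rises. Cathepsins, the lysosomal proteases, rose in 7 of 17, CTSD from 94.5 and 134 to 498 and 379.9 CPM (1.94 ± 0.31) and ctsla from 195 and 71.1 to 958 and 659 CPM (2.60 ± 0.41).

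**Figure D5:**
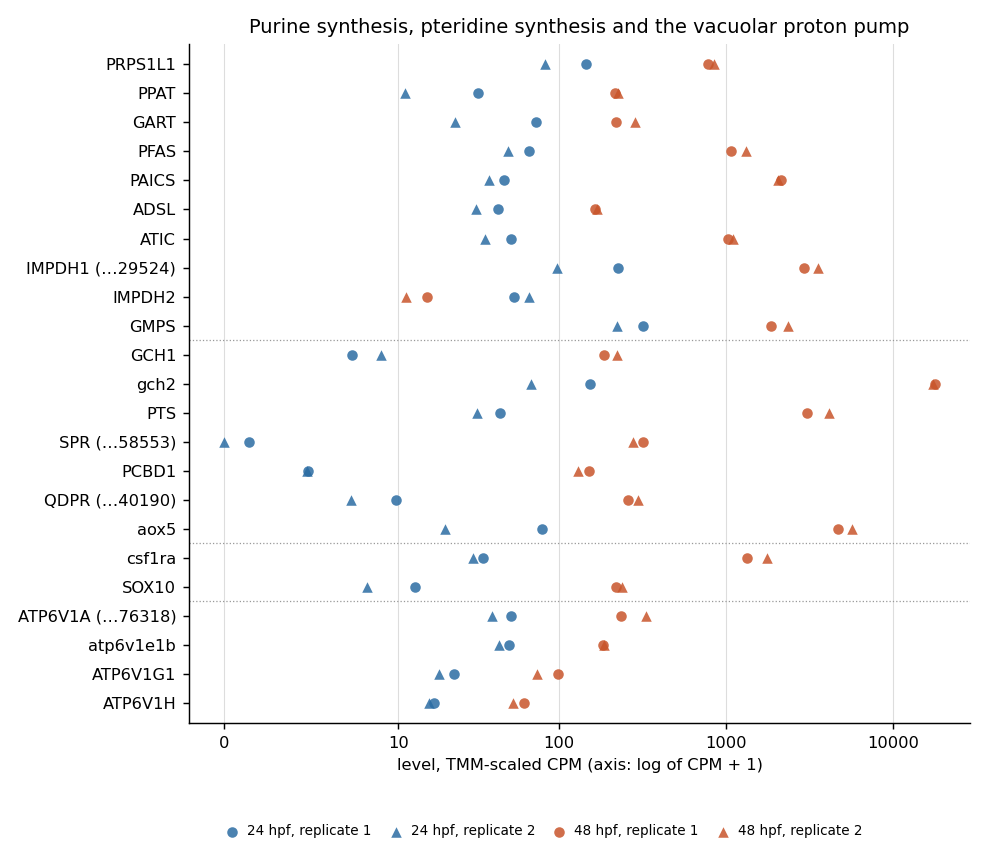
Level of 10 purine synthesis genes, 7 pteridine genes, csf1ra, SOX10 and 4 proton pump subunits in each library, in TMM-scaled CPM on an axis of the log of CPM + 1; symbols and colours as in the plot of marker levels. IMPDH2 is the only gene plotted whose 48 hpf points lie below its 24 hpf points.

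Markers of cells from outside the heart were called higher in several lists. Counts here, and below for muscle, epidermis, liver, epicardium and cartilage, were read against all genes, of which 9.06% rose and 4.29% fell. Neural genes rose in 15 of 30 and fell in 0 (median 3.39, or 3.01 at the bounds), and without 24 hpf replicate 1 the median was 5.90. ELAVL3, an RNA-binding protein of neurons, stood at 15.2 and 19.2 CPM at 24 hpf and at 75.9 and 99.4 CPM at 48 hpf (2.35 ± 0.38, adjusted p = 0.000655), and NEUROD4 had no count at 24 hpf and was at least 319-fold higher. Retinal factors came with them, VSX1 of bipolar cells at least 382-fold and crx of photoreceptors at least 241-fold higher, both from 0. In the lens and retina list 6 of 29 rose, while 7 members, the lens crystallin CRYAA among them, had no count in any of the 4 libraries.

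Skeletal muscle genes rose in 14 of 35 members and fell in 0 (median 4.70), and the median was 7.26 without 24 hpf replicate 1. myhz2, a fast myosin heavy chain, stood at 16.6 and 11.2 CPM at 24 hpf and at 448 and 652 CPM at 48 hpf (5.31 ± 0.44, adjusted p = 2.47e-06), and TNNT3 (ENSDARG00000068457), fast troponin T, went from 5.50 and 3.69 to 243 and 176 CPM (5.51 ± 0.59). Both lay above 0 at 24 hpf. MYF6, a muscle regulatory factor, had no count in any of the 4. Epidermal genes rose in 14 of 26 and fell in 1. cdh1, E-cadherin, went from 34.4 and 30.5 to 273 and 298 CPM (3.14 ± 0.30, adjusted p = 7.57e-06), and krt94 from 10.8 and 4.17 to 79.6 and 90.8 CPM (3.51 ± 0.52). The omissions in turn gave 10, 7, 8 and 8 rises.

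Liver and yolk genes rose in 16 of 40 and fell in 0 (median 4.11, or 2.72 at the bounds), at low levels. Without 24 hpf replicate 1 the median was 6.69, and without 48 hpf replicate 1 it was 2.497. serpina1 went from 0 and 0 to 7.24 and 3.85 CPM, at least 64.0-fold higher, and the fibrinogen chain FGG from 0 and 0 to 6.55 and 3.56 CPM, at least 58.3-fold higher. apoa1b, an apolipoprotein, went from 0.331 and 3.26 to 68.9 and 50.8 CPM (5.01 ± 0.87). Exocrine pancreas and gut genes summed to 49.3 and 71.0 CPM at 24 hpf and 13.0 and 13.8 CPM at 48 hpf. Of 16 tested members 1 rose and 0 fell, against 9.06% and 4.29% of all genes. ela2l, the member at the highest level, went from 27.6 and 53.2 to 0 and 0.395 CPM and was not called (adjusted p = 0.101). The exocrine pancreas genes prss59.1, prss59.2 and ctrl had no count in any of the 4 libraries.

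Epicardial and fibroblast-like genes rose in 10 of 25 and fell in 3. WT1, a factor of the epicardium, the outer layer of the heart, went from 0 and 0 to 24.6 and 44.1 CPM, at least 426-fold higher. TBX18, another epicardial factor, stood at 1.79 and 4.46 CPM at 24 hpf and at 49.6 and 106 CPM at 48 hpf (4.63 ± 0.67, adjusted p = 0.000283). Both 48 hpf libraries were high in WT1 and TBX18. TCF21, the third of these factors, stood at 20.8 and 7.92 CPM at 24 hpf and at 17.6 and 34.2 CPM at 48 hpf and was not called (adjusted p = 0.604). The 2 IDs of the fibronectin FN1 were called in opposite directions. ENSDARG00000006526 rose from 18.6 and 28.0 to 229 and 366 CPM (3.67 ± 0.44). ENSDARG00000019815 fell from 496 and 303 to 108 and 140 CPM (−1.69 ± 0.38, adjusted p = 0.0070). Collagen I genes rose, col1a1a from 113 and 88.8 to 728 and 651 CPM (2.77 ± 0.51). PDGFRB, of mural cells, fell from 64.3 and 56.1 to 7.81 and 5.09 CPM (−3.22 ± 0.60). With each library left out in turn, 1, 3, 1 and 2 genes of the list fell.

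Cartilage genes rose in 7 of 21, and in 3, 5, 4 and 3 with each library left out in turn. Smooth muscle and pericyte genes rose in 4 of 12 and fell in 2, with 3, 2, 1 and 2 rising and 2, 2, 2 and 1 falling in the same order.

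Circadian clock genes rose in 14 of 32 members and fell in 0 (median 1.26), and without 48 hpf replicate 1 the median was 0.78 and 10 rose. The share of all genes that rose was 9.06%. Among the clock genes that rose were repressors of the clock and its outputs. BHLHE41, a repressor, stood at 1.66 and 1.54 CPM at 24 hpf and at 161 and 109 CPM at 48 hpf (6.40 ± 0.48, adjusted p = 1.18e-06), and nr1d2a, a nuclear receptor repressor, went from 4.64 and 4.37 to 80.3 and 46.5 CPM (3.81 ± 0.37). PER2, which light induces in zebrafish, went from 54.1 and 89.2 to 283 and 212 CPM (1.79 ± 0.34) and the photolyase-family gene cry5 from 3.25 and 4.70 to 32.1 and 42.0 CPM (3.22 ± 0.49). Of the output factors, tefa went from 41.0 and 35.1 to 255 and 249 CPM (2.73 ± 0.37) and dbpa from 0 and 0 to 11.5 and 14.1 CPM, at least 155-fold higher. The activators were not called: both CLOCK IDs, both BMAL1 IDs and bmal2 had adjusted p of at least 0.0949. PER3, the list member at the highest level, was not called either (0.27 ± 0.29, adjusted p = 0.628). It stood at 175 and 230 CPM at 24 hpf and at 212 and 277 CPM at 48 hpf. In all 18 of the 32 members were not called. The labels do not give the time of day at which cells were sorted.

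Genes that respond to cell handling were read against 9.06% of all genes that rose and 4.29% that fell. Immediate early genes rose in 3 of 32 and fell in 2, with 2, 5, 0 and 1 rising and 1, 2, 2 and 1 falling when each library was left out in turn. DUSP6, a feedback target of Fgf and MAP kinase signals, fell from 509.7 and 350.4 to 146 and 111 CPM (−1.75 ± 0.33, adjusted p = 0.00238). Of 32 genes of the heat shock and unfolded protein responses 3 rose and 0 fell. XBP1 (1.54 ± 0.32) and DDIT3 (2.56 ± 0.43), factors of the unfolded protein response, rose whichever library was left out.

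Counts for the signalling pathways were read against 9.06% of all genes that rose and 4.29% that fell. In the BMP and TGF-beta list 4 of 41 rose and 2 fell, ID2, a target of BMP signals, rising from 59.17 and 32.9 to 217 and 135 CPM (1.94 ± 0.36) and TGFBR2 (ENSDARG00000059363) falling from 12.9 and 21.1 to 1.51 and 0.839 CPM (−3.85 ± 0.69). In the Wnt and Fgf list 3 of 56 rose and 2 fell, with LEF1, a nuclear partner of beta-catenin, going from 4.84 and 10.4 to 67.8 and 56.0 CPM (3.02 ± 0.41). When each library was left out in turn, 5, 3, 2 and 3 of the first list rose and 1, 1, 1 and 1 fell, and 3, 2, 2 and 1 of the second rose and 0, 1, 0 and 0 fell. In the Notch and vascular growth factor list 6 of 33 fell and 1 rose, nrp1b, a co-receptor, from 138 and 143 to 22.9 and 30.8 CPM (−2.39 ± 0.36). Of the Hox genes, a list assembled after the values were seen, 0 of 46 were called (median −0.50). Without 24 hpf replicate 1 their median was 0.10 and 1 was higher.

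Among developmental timing genes, TRIM71, a let-7 target that keeps embryonic cells dividing, fell from 272 and 276 to 59.9 and 56.7 CPM (−2.23 ± 0.29, adjusted p = 0.00012). ARID3A, a DNA-binding factor, rose from 46.8 and 67.9 to 177 and 169.6 CPM (1.59 ± 0.30). Over all genes 4.29% fell and 9.06% rose. In all 2 of 14 genes of that list fell, 1 without 24 hpf replicate 2 or 48 hpf replicate 1, and 1 rose.

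The wild-type GFP-negative libraries, 1 at each stage, give the same lists in the rest of the embryo as a description with no test. Between 24 and 48 hpf their median log2 differences were −1.82 for replication, −1.21 for mitosis and −1.29 for ribosome biogenesis, lower at 48 hpf as in GFP-positive cells. For embryonic globins the median was 1.99 there against −3.93 in GFP-positive cells, and for pteridine and xanthophore genes −1.95 against 5.76. Heme synthesis had −1.18 and endothelial receptors −0.84. Skeletal muscle genes had 0.72, glycolysis 0.70, and circadian clock genes 0.46. Whether these differences between fractions exceed the spread cannot be tested with 1 GFP-negative library at a stage.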

How the data were processed

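RNA from sorted cells was extracted with a column kit after Trizol and DNase treatment and made into libraries with a low-input SMARTer kit, per the labels' protocols. The submitters' processing notes name Trimmomatic 0.36, STAR 2.5, SAMtools 1.4, DESeq2 and the genome build GRCz10, without their order; the counting step, its strand setting and the annotation were not stated there. The authors deposited raw whole-number counts per Ensembl gene ID, 28298 IDs in 18 libraries; a second deposited table of transformed values was not used.

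Groups came from the labels. Counts were tested in edgeR 4.0.16 (R 4.3.3) with TMM scaling, the default expression filter by group (at least 10 counts, 15 in total) and its quasi-likelihood F test with robust dispersions. The 12 GFP-positive libraries were fitted as 6 groups with 6 residual degrees of freedom, so the 8 not compared enter only the spread, and p-values were adjusted over 23767 genes (Benjamini-Hochberg). Standard errors were taken as the absolute log2 fold change over the square root of F. Where all libraries of a stage were at 0, a lower bound on the fold was set from pooled counts against 3 counts over the pair, which is 0.0835 CPM at 24 hpf and 0.0830 CPM at 48 hpf; with 1 to 3 counts the ratio has an exact 95% interval, and both cover counting error only. The step was tested on simulated data.

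A table of gene names gave 24555 IDs a symbol, of which 11717 are in upper case and 3559 are shared by several IDs; shared ones are printed with their ID. Paralogs with like sequence, overlapping genes and antisense pairs could share reads. A set of named genes held the largest calls in each direction at 10 CPM or more. It also held the called members of each list with the largest changes, at most 6 in each direction, and fixed cardiac genes whatever their values. Not all of this set is described above. Other members were named to account for a list. Some list members that were tested are not reported here by name. The members, lists and rule were chosen with earlier results of these data known. The draculin list was shortened by 1 gene that is not of that family after its values were seen. Replicate differences at 24 and 48 hpf correlated at 0.012 across genes (−0.04 to 0.03 over the 6 groups), so replicate numbers were not taken to pair the libraries. Log2 CPM of replicates correlated across genes at 0.812 at 24 hpf and 0.851 at 48 hpf. One ID without a symbol held 7.81% and 10.2% of the counts at 24 hpf and 18.7% and 18.1% at 48 hpf. Alternatives were RLE and upper-quartile scaling, other filters, fewer libraries, a replicate block, each compared library left out, the dominant ID left out, and DESeq2 1.42.0.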

Additional observations from a re-analysis of the deposited data

How the results depend on the processing

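The counts of genes called, 2154 higher and 1019 lower at 48 hpf, moved most with the test and with the libraries that set the spread. DESeq2 called 3462 higher and 1732 lower. With the 4 compared libraries alone 1353 were higher and 996 lower, and with the 6 wild-type GFP-positive libraries 1377 and 764. Leaving out 1 compared library gave 1455 to 2298 higher and 502 to 791 lower. No filter on low counts gave 2934 and 1305, a filter of 10 CPM in 2 libraries 2092 and 1196, RLE scaling 2101 and 1077, upper-quartile scaling 2054 and 1101, and leaving out the dominant ID 2152 and 1018. A fit with the replicate number as a block called 2004 higher and 961 lower, of which 1955 and 931 were shared with the fit without it; no replicate number is said to pair libraries. Requiring a count in all 4 compared libraries, an alternative chosen after seeing the data, gave 1614 and 1055. For these changes in count the cause was not tested. Of 326 named genes that were called, 0 reversed under any of the 14 alternatives, and between 233 (without 48 hpf replicate 1) and 326 held their call. The median log2 fold change of all genes, 0.14, was 0.39 without 24 hpf replicate 1, 0.21 without 24 hpf replicate 2 and 0 without either 48 hpf library, so changes near those sizes depend on the libraries included. With 2 libraries a stage, 1891 gene IDs at 24 hpf had 0 counts in one replicate and 30 or more in the other, so a 0 in 1 library does not show that a gene was absent.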
